A study of Rattus norvegicus with 2 samples.

Results

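The peptide hormones of the enteroendocrine cells were followed at single-cell level in the rat proximal jejunum. The set was 10 genes of the 32883 in the deposited matrices, chosen by symbol: Gip, Gcg, Cck, Sct, Nts, Sst, Ghrl, Pyy, Tac1 and Gast. Each symbol matched 1 row of the matrices. The 10 genes were read in endocrine cells, defined without the hormones as cells with 3 or more unique molecular identifiers (UMIs, each standing for 1 captured transcript) of Chga and Chgb together, more than 1000 UMIs in all and at most 40% mitochondrial UMIs. Chga and Chgb encode chromogranins, proteins of the hormone granule, and their own levels in these cells were set by the gate.

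The study profiled dissociated jejunal epithelium of 2 male Sprague Dawley rats, 6 to 8 weeks old and 180 to 200 g in the sample labels, by droplet-based 3′ sequencing with 1 library per rat. Both rats were fasted overnight, the labels name no treatment, and the epithelium was released with EDTA and then dispase, so the levels are those of fasted animals. The rats are called rat 1 and rat 2, and the rat was the replicate (n = 2 throughout). The gate held 44 cells in rat 1 and 15 in rat 2, or 59 in all, against 6813 and 2143 other epithelial cells.

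Enteroendocrine cells are scattered through the gut epithelium and release peptides or serotonin into the blood or onto nearby nerves and cells when nutrients arrive. Each peptide is cut from a longer precursor by prohormone convertases and stored in dense-core granules with chromogranins and secretogranins. Cells have long been named by their main product (K cells for GIP, L cells for GLP-1 and PYY, I cells for CCK, D cells for somatostatin, enterochromaffin cells for serotonin), although many make several.

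The upstream sequences of Gip and Gast, and of Gcg and Pyy, are shown because these genes were found together in the same cells, as described further on. They are the 250 bases before the annotated start in RefSeq on GRCr8, read 5′ to 3′ on the gene's strand, and capitals mark the E-box letters CANNTG (bound by basic helix-loop-helix factors such as Neurod1) and the TATA box letters TATAAA, searched on both strands. GRCr8 is a later assembly than the one used for the counts, so it was used for sequence only.

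Gip, chr10:81464820-81465069 (+): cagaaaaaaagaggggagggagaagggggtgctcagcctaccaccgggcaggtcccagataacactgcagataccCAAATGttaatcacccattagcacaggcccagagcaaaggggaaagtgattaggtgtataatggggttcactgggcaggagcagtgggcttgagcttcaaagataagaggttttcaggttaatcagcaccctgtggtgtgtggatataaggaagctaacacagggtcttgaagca
Gast, chr10:85764966-85765215 (+): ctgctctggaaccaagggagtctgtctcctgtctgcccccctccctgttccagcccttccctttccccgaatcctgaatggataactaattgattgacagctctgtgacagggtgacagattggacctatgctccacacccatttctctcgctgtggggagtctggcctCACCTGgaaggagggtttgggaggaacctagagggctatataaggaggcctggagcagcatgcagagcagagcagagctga
Gcg, chr3:67531534-67531783 (-): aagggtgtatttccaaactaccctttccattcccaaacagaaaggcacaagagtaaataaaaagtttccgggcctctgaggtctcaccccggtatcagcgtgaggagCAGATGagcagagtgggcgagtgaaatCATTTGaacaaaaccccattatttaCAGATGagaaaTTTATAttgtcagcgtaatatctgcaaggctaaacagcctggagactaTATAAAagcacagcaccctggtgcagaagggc
Pyy, chr10:87562471-87562720 (-): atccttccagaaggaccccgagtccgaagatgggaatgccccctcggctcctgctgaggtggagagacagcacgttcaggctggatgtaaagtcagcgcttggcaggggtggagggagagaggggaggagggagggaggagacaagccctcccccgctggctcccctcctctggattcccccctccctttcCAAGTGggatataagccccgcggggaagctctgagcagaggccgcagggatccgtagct

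A RefSeq entry was matched for 8 of the 10 genes, and Cck and Sct are named only. An E-box lay in the upstream 250 bases of 7 of these 8 genes, against 65.5% of the 33469 promoters in the table, so its presence was common in general. The letters TATAAA were found upstream of 1 of the 8, Gcg, against 12.9% of all promoters. Only these exact letters were searched, so the count does not cover other forms of the TATA box. Sst encodes somatostatin, whose promoter is the textbook example of a cyclic AMP response element. The 8 letters of this element, TGACGTCA, were in none of the 8 upstream windows (1.59% of all promoters). In Sst they began at base 3 after the annotated start. Over whole windows of 300 bases, which run past the start, 1.83% of all promoters held them. Whether the annotated start is the one used in these cells was not tested. The letters are shown in capitals in 30 bases at chr11:90461537-90461566 (+) on GRCr8.

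Sst: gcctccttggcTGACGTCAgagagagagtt

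These are matches of letters and were not tested as binding sites.

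The matrices held 12033 barcodes and 99986348 UMIs in rat 1 and 8252 barcodes and 66469907 UMIs in rat 2, of which 9345 and 5523 barcodes passed the filters. The endocrine cells summed to 339262 and 181814 UMIs, with a median of 5908.5 and 10647 UMIs per cell, and the other epithelial cells had medians of 11456 and 14385. Endocrine cells made up 0.642% (exact binomial 95% interval 0.467 to 0.86) of epithelial cells in rat 1 and 0.695% (0.39 to 1.14) in rat 2. Intervals on shares and counts here cover counting error only. The libraries shared 28 barcode sequences. At the edge of the gate, 2 and 1 cells had exactly 3 UMIs and 8 and 17 cells had 2, while 38 and 14 cells had 10 or more. A gate of 2 UMIs would hold 52 and 32 cells. Of the endocrine markers that the gate did not use, Scg2 was detected in 33 of 44 and 9 of 15 gated cells, Neurod1 in 33 and 12, Cpe in 39 and 13, Scg5 in 31 and 7 and Scg3 in 20 and 11. Pcsk1 was detected in fewer, 6 and 4, as was Vgf, 7 and 1. Pcsk1n had 0 UMIs in the gated and in the other epithelial cells of both rats, so its row tells nothing about the gate. Of the gated cells, 2 in rat 1 and 1 in rat 2 lay in immune clusters, and Ptprc, the pan-leukocyte marker, was detected in 4 and 1. The summed level of the 7 immune markers was 828 and 2310 UMIs per 1000000 (CPM) in gated cells, with all 7 detected. It was 752 and 709 CPM in other epithelial cells and 16502 and 22582 in immune cells. These sums mix opposite directions. Cd74 was lower in gated than in enterocyte-like cells (130 against 1177 CPM in rat 1, 82.5 against 587 in rat 2). The other immune markers were higher in gated cells of both rats. Ccl5 stood at 251 and 1067 CPM against 16.6 and 77.9, and Cd3g at 209 and 77.0 against 4.71 and 6.06. The 6 neural or mesenchymal markers summed to 781 and 424 CPM in gated cells against 1.66 and 5.26 in other epithelial cells, mostly from Vim (746 and 407 CPM, in 27 and 9 cells), while Col1a1 and Col3a1 had 0 UMIs. Their part in the hormone levels was not tested. The gated cells outside the endocrine-like clusters, 4 in rat 1 and 2 in rat 2, had no hormone at 10 or more UMIs.

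The incretin and K-cell gene Gip (ENSRNOG00000006306), whose product promotes insulin release after a meal, was among the most concentrated transcripts. Its level in endocrine cells was 28397 CPM in rat 1 and 90235 in rat 2, against 2.74 and 2.17 in other epithelial cells. A few cells carried nearly all of it. In rat 1, 7 of 44 cells had 3 or more Gip UMIs and the highest had 3980, while in rat 2 the corresponding number was 2 of 15, with 6893 and 9511 UMIs. Gip made up 47.7% of all UMIs in the latter cell, and without the highest cell of each rat the levels were 17102 and 42592 CPM. Endocrine cells held 97.6% and 99.5% of the Gip UMIs of the epithelium.

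Gast (ENSRNOG00000014740) encodes gastrin, the stimulant of gastric acid secretion, which is made mostly in the stomach antrum and upper small intestine. It was measured at 914 CPM in rat 1 and 7722 in rat 2, against 0.127 and 0.507 in other epithelial cells. Both rats were far above their own epithelium, and rat 2 lay well above rat 1. A single rat 2 cell held 952 of the 1404 Gast UMIs, and without it the level in rat 2 was 2886 CPM.

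Cck (ENSRNOG00000019321) encodes cholecystokinin, which triggers gallbladder contraction and pancreatic secretion. Its endocrine level was 2688 CPM in rat 1 and 43979 in rat 2, against 4.88 and 41.7 in other epithelial cells, so the rats differed in both groups of cells. In rat 1, 8 of 44 endocrine cells had 3 or more Cck UMIs and the highest had 666, and in rat 2 the count was 6 of 15, with a maximum of 5137. Without the highest cell of each rat, the levels were 744 and 18252 CPM, so 1 cell held more than the rest together in either rat. Endocrine cells held 68.4% and 84.4% of the epithelial Cck UMIs.

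Sct (ENSRNOG00000017873) encodes secretin, which drives bicarbonate secretion from the pancreatic ducts. It was the most widely detected hormone among endocrine cells, with 3 or more UMIs in 29 of 44 and 12 of 15 cells, and 65.9% and 80.0% of cells kept a UMI after each cell was thinned to 1000 UMIs. The endocrine level was 12790 CPM in rat 1 and 9438 in rat 2, against 33.9 and 129 in other epithelial cells. The rats were closer to each other in Sct than in most other hormones. Endocrine cells held 59.7% of the epithelial Sct UMIs in rat 1 and 27.3% in rat 2.

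Gcg (ENSRNOG00000005498) encodes proglucagon, which L cells cut to GLP-1 and GLP-2, and Pyy (ENSRNOG00000020877) encodes peptide YY, which slows gut transit and curbs appetite. Gcg was measured at 22169 CPM in endocrine cells of rat 1 and 66.0 in rat 2, against 3.69 and 0.338 in other epithelial cells. Pyy was at 7428 CPM in rat 1 and had 0 UMIs in rat 2, which allows up to 16.5 CPM there (3 counts over the group), against 0.797 and 0.0563 in other epithelial cells. The L-cell pair was thus carried by rat 1, where 9 cells had 3 or more Gcg UMIs and 7 had 3 or more Pyy UMIs. Without its highest cell, Gcg in rat 1 was at 10448 CPM. In rat 2, 1 cell held all 12 Gcg UMIs. One rat 1 cell held 2137 of the 2520 Pyy UMIs, and without it Pyy was at 1182 CPM.

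Nts (ENSRNOG00000004179) encodes neurotensin, which is released after fat intake and acts on motility and fat absorption. It was the highest hormone in rat 1, at 143223 CPM in endocrine cells against 19.7 in other epithelial cells, and stood at 941 against 0.113 in rat 2. In rat 1, 20 of 44 cells had 3 or more UMIs, with a maximum of 6911, and in rat 2 there were 3 of 15, with a maximum of 69. The difference between the rats was therefore one of both the number of cells and the amount in each. At 1 UMI, Nts in rat 1 was spread over cells that should lack it, with 18.6% of enterocyte-like cells (median 11510.5 UMIs) and 16.4% of immune cells (median 1632.5 UMIs) positive, so that single Nts UMIs in that library were read as background. At 3 or more UMIs the count fell to 15 of 3628 enterocyte-like cells.

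Sst (ENSRNOG00000001837) encodes somatostatin, the general brake on the release of other gut hormones. Its level was alike in both rats, at 16839 CPM in rat 1 and 23722 in rat 2, against 0.647 and 0.929 in other epithelial cells. The cells behind these values differed in number. In rat 1, 7 cells held 277 to 1477 UMIs each, and in rat 2 a single cell held all 4313, so the rat 2 level was that of 1 cell.

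Ghrl (ENSRNOG00000010349) encodes ghrelin, the hunger hormone of the stomach and upper gut, and was sparse in this tissue. It had 89 UMIs in rat 1 endocrine cells, or 262 CPM, of which 75 were in 1 cell. In rat 2 it had 0 UMIs in the 15 cells, against 0.507 CPM in other epithelial cells, so no ratio was formed. Tac1 (ENSRNOG00000007374) encodes substance P and neurokinin A, peptides of enterochromaffin cells and enteric nerves. Its level was 1539 CPM in rat 1 and 490 in rat 2, against 0.381 and 0.141 in other epithelial cells. Tac1 was low per cell but common, with 3 or more UMIs in 15 of 44 and 5 of 15 cells and a maximum of 162.

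**Figure D1:**
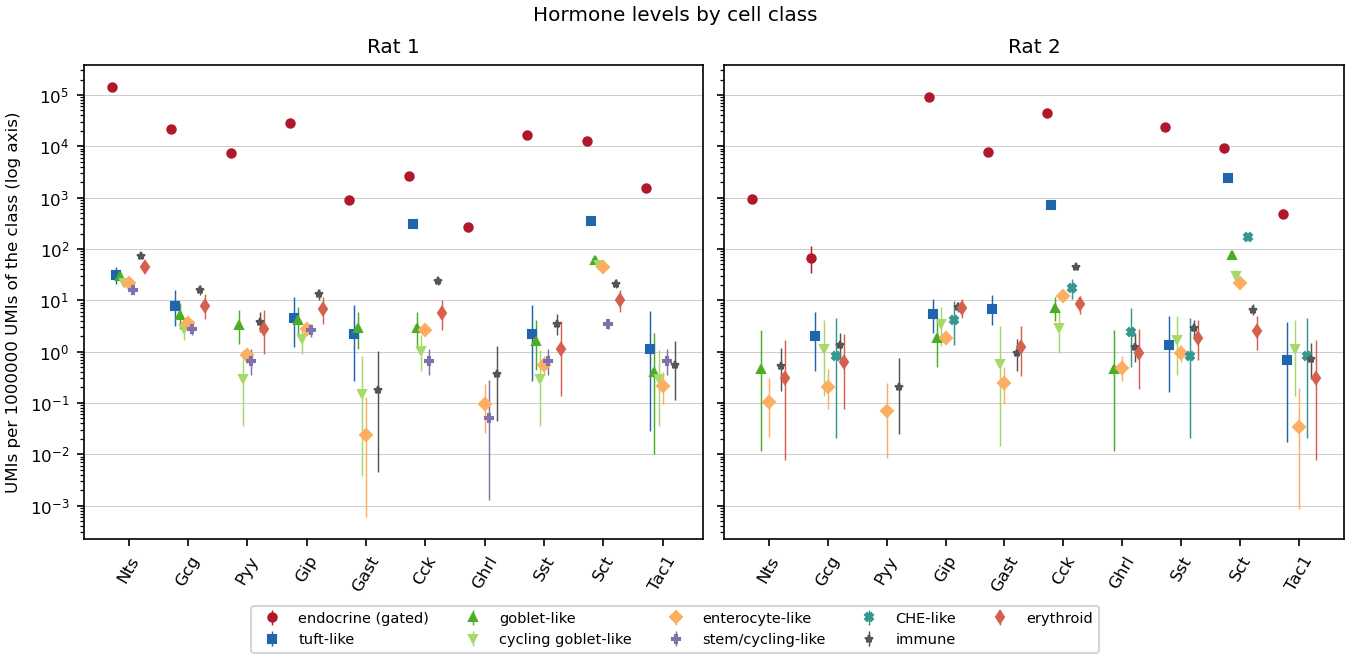
Level of each hormone in UMIs per 1000000 UMIs of the class (log axis) for each cell class, rat 1 on the left and rat 2 on the right; bars are exact Poisson 95% intervals, and classes with 0 UMIs, few cells or no name are not drawn. Where an endocrine point is drawn, it lies above those of every other class. Ghrl and Pyy in rat 2 have none, with 0 UMIs in endocrine cells, although other classes are drawn there. The gap was smallest for Sct in rat 2, where tuft-like cells reached 2366 against 9438 in endocrine cells.

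The question of whether the hormones were higher in endocrine than in other epithelial cells was put to the UMIs summed per rat and cell group, since cells of 1 rat are not replicates. With edgeR's quasi-likelihood test and Benjamini-Hochberg adjustment over 11108 genes, 208 genes (1.87%) were higher and 48 (0.432%) lower in endocrine cells at an adjusted p of 0.05. Of the 10 hormones, 5 were called higher, 4 were not called and Ghrl did not pass the low-count filter. Gcg, Nts, Pyy, Tac1 and Gast passed that filter only with an endocrine sum in which they are high. The count is therefore an account of the members and not support for them. Tac1 was higher by 11.61 on the log2 scale (SE 1.22, adjusted p = 0.0042), Sst by 14.23 (SE 1.65, adjusted p = 0.0057) and Gast by 13.22 (SE 1.80, adjusted p = 0.012). The difference in Gip was 14.12 (SE 2.05, adjusted p = 0.015) and in Sct 6.66 (SE 1.31, adjusted p = 0.046).

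The 4 hormones that missed the threshold were those, Ghrl aside, whose endocrine level differed most between the rats. Their log2 differences in edgeR's test were 9.35 for Cck (SE 2.15, adjusted p = 0.072), 12.30 for Gcg (SE 3.04, adjusted p = 0.089), 12.89 for Pyy (SE 3.28, adjusted p = 0.096) and 12.73 for Nts (SE 3.74, adjusted p = 0.14). Within each rat, Nts was 7258 times as high in endocrine as in other epithelial cells of rat 1 (Poisson 95% interval 6916 to 7621) and 8352 times in rat 2 (3203 to 31003). For Gcg these ratios were 6015 (5377 to 6749) and 195 (80.3 to 475). The endocrine and other cells of a rat come from the same animal, and with the rat as a block all 9 hormones tested were called in edgeR, Cck, Gcg, Pyy and Nts included, among 729 genes higher and 1091 lower. Without the gated cells outside the endocrine-like clusters, all 9 were likewise called in edgeR, at log2 differences of 6.62 to 14.26. Those clusters were named from markers that include Chga, Chgb and Tac1, so this setting is not independent of the gate. The call of Sct ended when cells were limited to more than 5000 UMIs and 200 to 5800 genes (adjusted p = 0.055 in edgeR). It also ended with a limit of at most 20% mitochondrial UMIs (edgeR adjusted p = 0.13). The log2 difference of Sct was between 5.79 and 7.73 in the fits with a test, 6.20 in rat 2 alone and 8.56 in rat 1 alone. With the cell highest in each hormone left out of each rat, an alternative chosen after seeing the data, the log2 difference of Cck was 3.84 (edgeR adjusted p = 0.098) in place of 9.35.

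The endocrine cells differed in which hormone led them, taken as the hormone with the most UMIs in the cell if it had 10 or more. UMIs are counted per transcript end and were not scaled by gene length. In rat 1, Nts led 16 of the 44 cells (36.4%, exact binomial 95% interval 22.4 to 52.2), Sst 7, Tac1 5, Gip 4, Sct 3 and Gcg 2, and 7 cells had no leading hormone. In rat 2, Sct led 6 of the 15 cells (exact binomial 95% interval 16.3% to 67.7%), Gip 2, Cck 2, Sst 1 and Tac1 1, and 3 had none. Nts led 0 of the 15 cells of rat 2, and a count of 0 there leaves room for a share of 20.0% (3 counts of 15). A leading peptide could take up a large share of the cell. Nts made up 5.67% to 54.5% of the UMIs of the cells it led, Gcg 32.7% and 33.6%, and Sst 1.59% to 23.1% in rat 1 and 30.4% in rat 2.

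**Figure D2:**
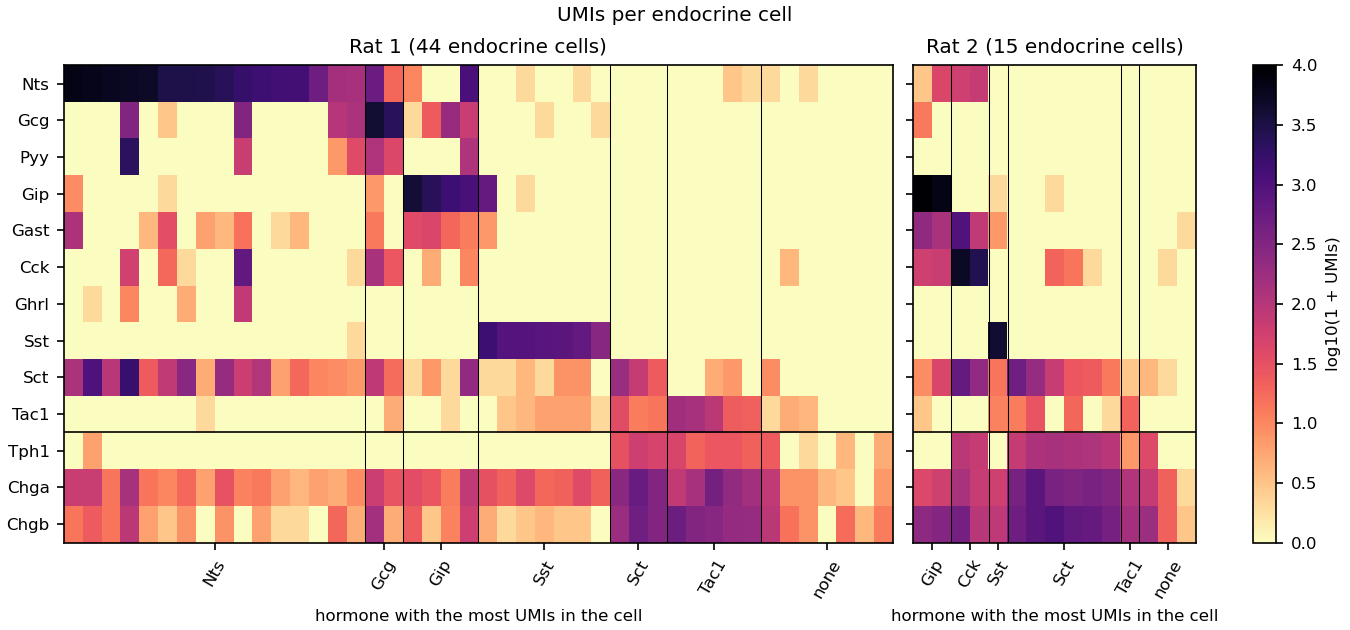
UMIs (log10 of 1 + UMIs) of each hormone, Tph1, Chga and Chgb in every endocrine cell, 1 column per cell, grouped by the hormone with the most UMIs, for rat 1 (44 cells) and rat 2 (15 cells). All cells led by Sct or Tac1 have Tph1, as do both Cck-led cells of rat 2 and some cells with no leading hormone, and cells led by Sst have little of the other hormones except for 1 with 623 Gip UMIs.

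Serotonin-producing enterochromaffin cells make their amine with Tph1, the rate-limiting enzyme, and this gene split the endocrine cells. In rat 1, 12 of 44 cells had 3 or more Tph1 UMIs, and in rat 2 there were 10 of 15. The Tph1 cells carried little of the 10 hormones. The 10 hormones together took a median of 0.81% of the UMIs of these cells in rat 1 and 0.664% in rat 2, against 31.9% and 30.7% in the endocrine cells with fewer Tph1 UMIs. Their Chga and Chgb UMIs had a median of 430.5 and 806.5 per cell, against 21 and 141 in the others. Every one of the 8 cells led by Tac1 or Sct in rat 1, and of the 7 in rat 2, was a Tph1 cell. The cells led by Gip, Gcg or Sst had 0 Tph1 UMIs in both rats. Exceptions to the low hormone share were 1 Nts-led cell of rat 1 with 5 Tph1 UMIs and the 2 Cck-led cells of rat 2. The latter had 69 and 87 Tph1 UMIs beside 2704 and 5137 of Cck. The Cck-led cells of rat 1 numbered 0, so this combination was seen in 1 rat. Peptide genes outside the 10 are not in these shares. Cartpt, which encodes the peptide CART, stood at 18003 CPM in the Sct-led Tph1 cells of rat 2, above their Sct at 12882. It had 0 UMIs in the Sct-led cells of rat 1.

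**Figure D3:**
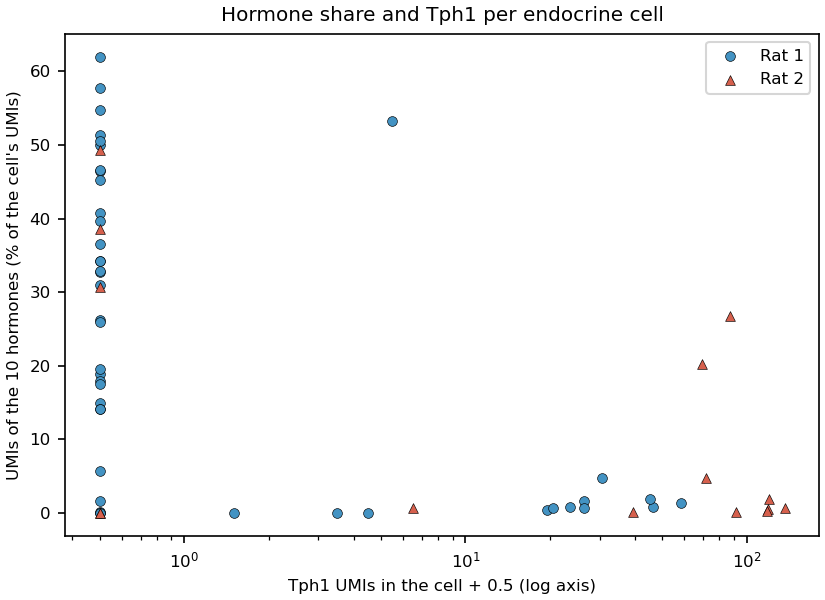
Share of each endocrine cell's UMIs taken by the 10 hormones (%) against its Tph1 UMIs plus 0.5 (log axis); circles are rat 1 cells and triangles rat 2 cells. Cells with 0 Tph1 UMIs reach 62.0%, and cells with 3 or more lie low except for 1 rat 1 cell at 53.3% and 2 rat 2 cells, the higher at 26.8%.

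Most endocrine cells carried transcripts of more than 1 hormone. The limit of 3 UMIs was passed in enterocyte-like cells of rat 1 by 15 of 3628 for Nts and 145 for Sct, and by 53 of 1523 for Sct in rat 2. At this limit, 33 of 44 endocrine cells (75%, exact binomial 95% interval 59.7 to 86.8) held 2 or more hormones in rat 1, and 9 of 15 (60%, 32.3 to 83.7) in rat 2. The highest number in a cell was 7 in rat 1 and 5 in rat 2. At 10 or more UMIs, the shares were 52.3% and 60%, so part of the overlap in rat 1 rested on low second hormones.

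Some hormones were found together and others apart. All 7 rat 1 cells with 3 or more Pyy UMIs also had Gcg and Nts, and 8 of the 9 Gcg cells had Sct. All 7 Gip cells of rat 1 and both of rat 2 had Gast, whereas 13 and 5 cells had Gast, so that Gast was the wider of the pair. Of the 20 Nts cells in rat 1, 19 had Sct, as did all 3 in rat 2. Sct was present with each of the 9 other hormones in rat 1.

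In rat 1, Sst kept apart from the L-cell set. None of its 7 Sst cells had 3 or more UMIs of Nts, Gcg, Pyy, Cck or Ghrl. The room for overlap differed, with 20 Nts cells among the 44 but 9, 7, 8 and 3 cells with Gcg, Pyy, Cck and Ghrl. The gap for the latter hormones thus rests on few cells. The 1 Sst cell of rat 2 did not reach this limit for Nts or Cck, which 3 and 6 of the 15 cells did. It could show nothing for Pyy and Ghrl, with 0 UMIs in those 15 cells, and little for Gcg, found in 1. A single rat 1 cell combined 1477 Sst and 623 Gip UMIs, and it was not among the cells that Scrublet called as doublets, although a droplet with 2 endocrine cells would not be told apart by that call. Tac1 and Nts shared 1 cell in rat 1 and 0 in rat 2, although 15 and 5 cells had Tac1 and 20 and 3 had Nts.

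**Figure D4:**
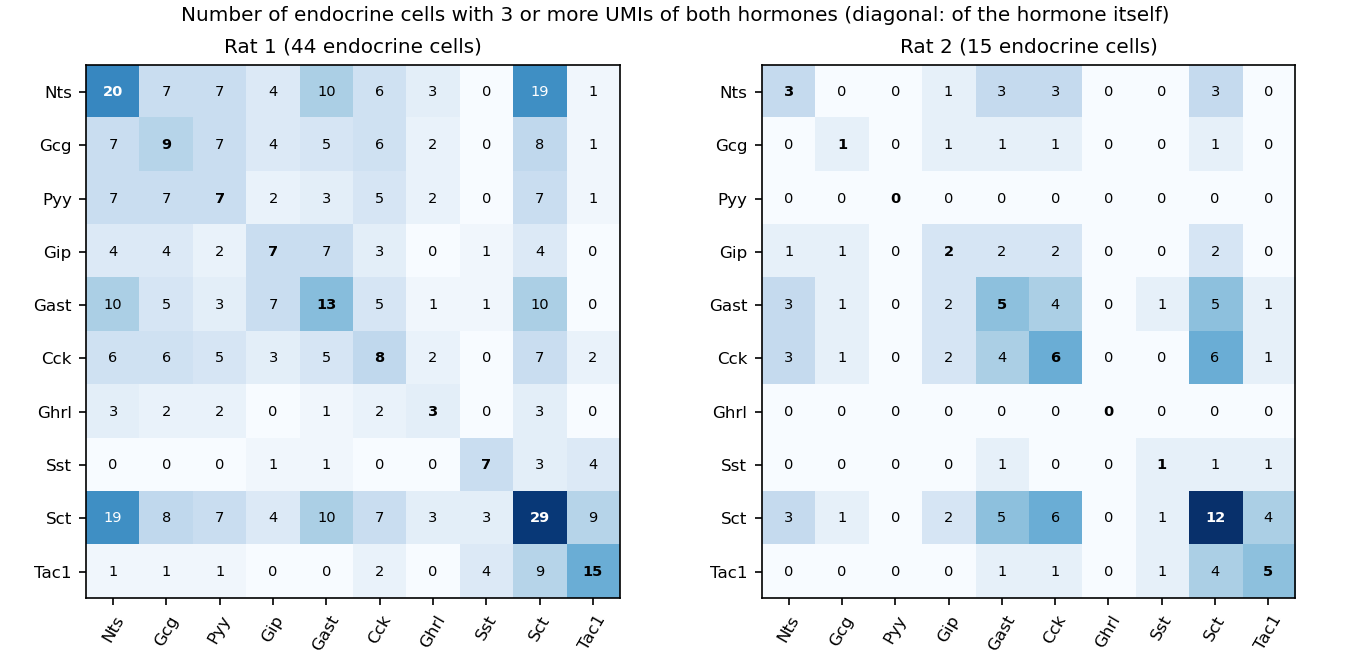
Number of endocrine cells with 3 or more UMIs of both hormones of a pair, in rat 1 (44 cells) and rat 2 (15 cells); the diagonal gives the cells with the hormone itself. Sct shares cells with every other hormone in rat 1 (29 cells in all), and Sst shares none there with Nts, Gcg, Pyy, Cck or Ghrl. In rat 2, 1 cell has Sst, and no cell has Pyy or Ghrl.

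The genes whose level followed each hormone most closely were listed by Pearson correlation of log-scaled levels over the 59 cells, centred within rat. These values describe cells of 2 libraries that differ in depth and carry no test. Gip was followed most closely by Fabp5 (r = 0.77), a fatty acid-binding protein, and Serpina1 (0.72), and in rat 1 also by Tdo2. The genes nearest to Gcg were Pyy (0.84) and Qpct (0.70), the enzyme that cyclises N-terminal glutamine of peptides, both detected in rat 1 cells only. Nts went with the retinol carrier Rbp4 (0.69), the transcription factor Etv1 (0.65) and Sct (0.65, or 0.69 within rat 1 and 0.39 within rat 2, where 4 cells had Nts). Sct went with Tm4sf4 (0.68), Nts and Agr3 (0.59). Tac1 was followed by Hibadh (0.75) and by Ddc (0.66), which makes serotonin from the product of Tph1. Gast went with Asgr1 (0.71) and Alpl (0.66), and Cck with Senp3 (0.67), Odf3b (0.66) and Rbp4 (0.63). Asgr1, Senp3 and Odf3b were detected in 6, 5 and 5 cells, so these values rest on few cells.

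Genes that process and package the peptides were higher in the same comparison. Of the 12 listed, 9 were tested, 7 were called higher in edgeR and none lower, with a median log2 difference of 9.07 against -0.16 over all genes tested. In this and the lists that follow, a gene with few UMIs in other cells passed the low-count filter through the endocrine sums and one with few in both was not tested, so counts and medians describe the genes tested and are in part set by the filter. Scg3 and Scg5, granule secretogranins, were higher by 12.98 (adjusted p = 0.0021) and 12.15 (adjusted p = 0.0021), and Scg2 by 12.05 (adjusted p = 0.0021). Scg5 stood at 631 and 913 CPM in endocrine cells against 0.139 and 0.113 in the others. Vgf, a granule peptide precursor, was higher by 9.11 (adjusted p = 0.015). The convertase gene Pcsk1 was at 35.4 and 71.5 CPM against 0.0462 and 1.21 and missed the threshold (adjusted p = 0.084 in edgeR). Pcsk1n had 0 UMIs in the gated and in the other epithelial cells of both rats.

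Transcription factors of the endocrine lineage were called higher in 9 of the 14 tested of 19 listed, and none was lower, with a median of 8.36. Fev, a serotonin-lineage factor, was higher by 14.24 (edgeR adjusted p = 0.0021). Isl1 was higher by 12.43 and Lmx1a, a factor of enterochromaffin cells, by 12.39, with adjusted p of 0.0021 and 0.0035. Neurog3, the factor that starts the endocrine program in progenitors, had 0 UMIs in the 59 gated cells.

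Serotonin genes were called higher in 2 of the 4 tested of 6 listed (median 7.93). Tph1 was higher by 12.83 (edgeR adjusted p = 0.0061), at 902 and 4710 CPM against 0.127 and 0.422, and Slc18a1, a vesicular transporter of amines, by 10.96 (adjusted p = 0.0021). Other peptide genes were called higher in 4 of the 6 tested of 15 listed (median 8.72). Cartpt, which encodes the peptide CART, was higher by 14.44 (adjusted p = 0.032) and uneven, at 277 CPM in rat 1 and 8610 in rat 2. Iapp, Ucn3 and Npw were higher by 12.89, 12.33 and 5.10 (adjusted p = 0.0043, 0.0021 and 0.039).

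Receptors of the hormones were mostly below the filter, with 4 of 22 tested and 2 called higher. Glp1r, the receptor of GLP-1, was at 20.6 and 143 CPM in endocrine cells and higher by 12.13 (edgeR adjusted p = 0.0060). Gipr was at 20.6 and 16.5 CPM and higher by 6.65 (adjusted p = 0.019). Both rest on few UMIs, 7 and 26 for Glp1r and 7 and 3 for Gipr. Of the 14 nutrient and bile acid sensors listed, 6 were tested and 1 was called, Kcnj11, a potassium channel subunit of glucose sensing, higher by 8.65 (adjusted p = 0.014) from 4 and 10 UMIs. The median over those tested was 0.67. At this depth the differences of the other 5 sensors tested did not pass the threshold.

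Peptidases and enzymes that act on the hormones included 2 that were lower. Of the 7 listed, 5 were tested, none was higher and 2 were lower in endocrine cells, with a median of -3.07. Mme, the membrane peptidase neprilysin, was lower, with a log2 difference of -3.36 (edgeR adjusted p = 0.035). Dpp4, which inactivates GLP-1 and GIP, was at 265 and 237 CPM in endocrine cells against 588 and 484 in the others, and that difference was not called (log2 -1.45, adjusted p = 0.29). These are enzymes of the enterocyte brush border, and the summed level of the 8 enterocyte markers was 12589 and 14955 CPM in endocrine cells against 76187 and 81011 in the others, with all 8 detected.

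Outside the endocrine cells, Sct and Cck were found in tuft-like cells, a class of chemosensory cells named here from Dclk1, Avil and other markers. The values are a description of clusters, formed without the 10 hormones, Chga and Chgb, and carry no test. Sct stood at 353 CPM in the 154 tuft-like cells of rat 1 and 2366 in the 185 of rat 2, against 44.1 and 21.6 in enterocyte-like cells. Cck was at 311 and 734 CPM, against 2.61 and 12.1. Both hormones were thus higher in tuft-like than in enterocyte-like cells in either rat, and higher in rat 2 than in rat 1.

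The signal was spread over many tuft-like cells. In rat 2, 143 of 185 tuft-like cells (77.3%) had 3 or more Sct UMIs, 123 (66.5%) had 3 or more Cck UMIs and 108 had both. In rat 1 the numbers were 37, 44 and 19 of 154. The enterocyte-like cells passed this limit for Sct in 4.00% and 3.48% and for Cck in 0.248% and 1.84%, although they were deeper, with medians of 11510.5 and 19229 UMIs against 3545.5 and 7035 in tuft-like cells. After thinning to 1000 UMIs, Sct was detected in 30.5% and 64.9% of tuft-like cells and in 4.49% and 2.17% of enterocyte-like cells.

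Most other endocrine transcripts were at 0 or low in the tuft-like cells. Scg2, Scg3, Scg5, Neurod1, Cpe and Tph1 had 0 UMIs in the tuft-like cells of both rats, and Chga had 2 and 3 UMIs in all. Gip, Gcg, Nts and Sst stood at 4.49, 7.86, 31.4 and 2.25 CPM in tuft-like cells of rat 1, against 13.1, 15.8, 74.4 and 3.45 in immune cells of the same library. In rat 2 they stood at 5.38, 2.02, 0 and 1.35 CPM, against 7.41, 1.34, 0.515 and 2.88 in immune cells. Gast stood apart from these at low counts in rat 2, with 6.73 CPM in tuft-like cells (10 UMIs in 10 of 185 cells, Poisson 95% interval 3.23 to 12.4). Enterocyte-like and immune cells of rat 2 had 0.242 and 0.927. In rat 1, tuft-like cells had 2.25 CPM (2 UMIs, interval 0.272 to 8.11), against 0.0233 in enterocyte-like and 0.182 in immune cells. Goblet-like cells of rat 1 had 2.84 CPM (7 UMIs, 6 of them in 1 cell), so Gast did not set tuft-like cells apart there. Conversely, the 6 tuft markers measured had a summed level of 2.95 and 16.5 CPM in gated endocrine cells, with Dclk1 at 0 UMIs in both rats.

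**Figure D5:**
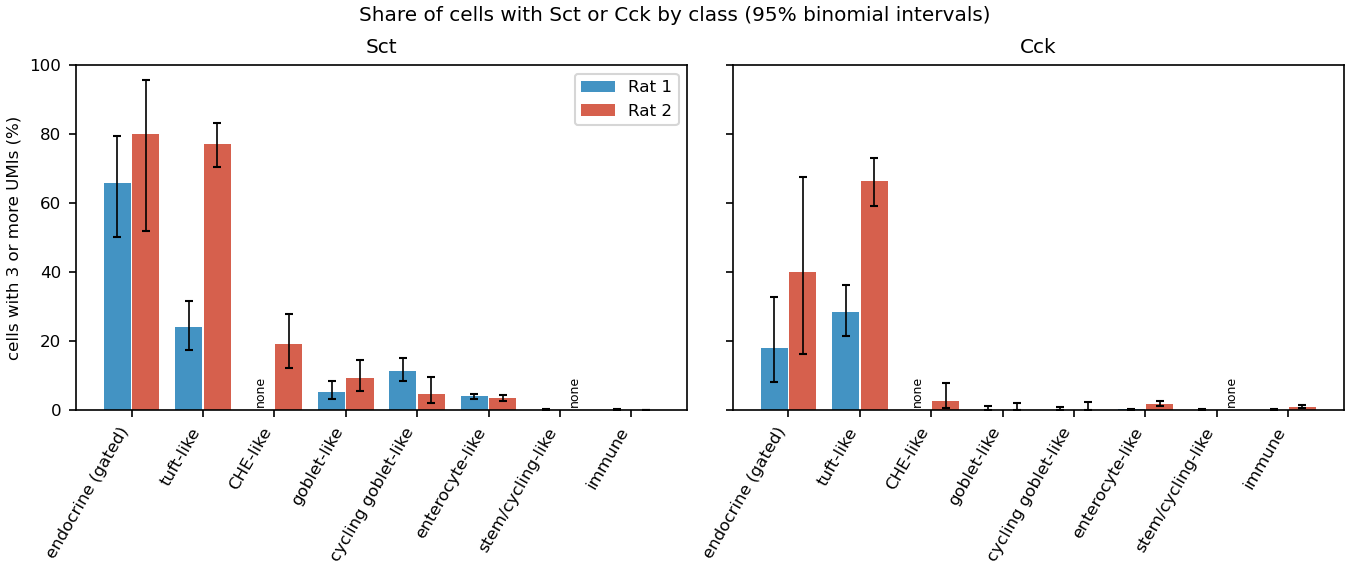
Share of cells (%) with 3 or more UMIs of Sct (left) or Cck (right) by class, rat 1 in blue and rat 2 in red; bars are exact binomial 95% intervals, and "none" marks a class not found in that rat. Tuft-like cells reach 77.3% for Sct and 66.5% for Cck in rat 2, and 24.0% and 28.6% in rat 1, while goblet-like and enterocyte-like cells stay below 10% in both rats and cycling goblet-like cells of rat 1 reach 11.5% for Sct.

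Lower Sct was also found in other classes. In goblet-like cells it stood at 59.6 and 74.9 CPM, with 3 or more UMIs in 18 of 333 and 17 of 181 cells, and in cycling goblet-like cells at 48.4 and 30.3 CPM, with 41 of 358 and 7 of 145. In rat 1 these levels were near the 44.1 CPM of enterocyte-like cells. The CFTR high expresser (CHE)-like cells, found as a cluster in rat 2 only, had Sct at 172 CPM, with 3 or more UMIs in 21 of 109 cells. In stem and cycling cells of rat 1, Sct was at 3.48 CPM. For Cck, the immune cells were at 23.4 CPM in rat 1 and 44.8 in rat 2, with 3 or more UMIs in 3 of 2022 and 26 of 2742 cells. Low Cck was thus not limited to the epithelium in either library. Of the other 8 hormones, only Nts and Gcg reached 10 or more UMIs in a cell outside the gate and the endocrine-like clusters, in 3 rat 1 cells with 59 and 125 Nts UMIs and 18 Gcg UMIs.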

How the data were processed

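Single-cell suspensions of proximal jejunum epithelium were sequenced with a 3′ droplet kit, 1 library per rat. For each library the deposited file held UMI counts by gene and barcode, not normalized, which the authors made with Cell Ranger on the rat genome build rn6 (Rnor6). Its header names version 3.1.0 in rat 1 but 5.0.1 in rat 2, and an effect of the version cannot be told apart from the rat. The 10 hormones and the gene lists were chosen with earlier results of these data known.

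Barcodes with more than 1000 UMIs and at most 40% mitochondrial UMIs were kept and clustered per rat in scanpy 1.11.5 (Python 3.11.15; 2000 variable genes without the hormones, Chga and Chgb, 20 principal components, 15 neighbours, Leiden resolution 1.0, seed 1). A cluster was called by a class's name with "-like" when at least 3 of its markers were in 25% or more of its cells and at 2 or more times the median level over clusters, with markers of the class among its 10 leading genes for all but enterocyte-like clusters, which had to hold fewer than 3 cycling markers. The endocrine markers used for naming included Chga, Chgb and the hormone Tac1, although the clusters were formed without them. Clusters with Ptprc in over 25% of cells were called immune. Immune, erythroid and mesenchymal clusters and endocrine-like cells below the gate were left out of the other epithelial cells. Scrublet called 348 of the kept barcodes (3.72%) in rat 1 and 2 (0.0362%) in rat 2, where it did not work, so its calls were left in and removed only as an alternative.

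UMIs were summed per rat and cell group and tested in edgeR 4.0.16 (R 4.3.3, TMM scaling, filterByExpr, quasi-likelihood test), with DESeq2 1.42.0 as an alternative. On simulated counts, the edgeR test recovered 63 of 200 genes changed by 3 on the log2 scale, and 4.55% of its calls were false. A gene that was not called may therefore still differ by that much. The 4 sums share 2 animals. Across 11108 genes the deviations of the rats in endocrine and other cells correlated at 0.34, and the pairing comes from the animal. With 2 rats, p-values measure the spread between these animals only. CPM are UMIs per 1000000 UMIs of the group, shares carry exact binomial intervals, levels and ratios exact intervals from counts (95%), and the depth is given with each group. Shares were also taken after thinning each cell to 1000 UMIs. All 10 hormones are named, and of each list up to 4 genes by size of log2 difference among those past the threshold. Genes like a hormone were the 3 with the highest correlation among genes in 5 or more endocrine cells, for hormones in 10 or more cells; other genes were named after their values were seen. A few genes that these rules would name are not reported here. Alternatives covered the gate, filters, scaling, test, comparison cells, doublets and single cells of high level. Figures were drawn in matplotlib 3.10.9.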

Additional observations from a re-analysis of the deposited data

Results flagged for a closer look

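Hormone transcripts were present in cells that the comparisons did not use. The endocrine-like cluster of rat 1 held 6 cells with fewer than 3 UMIs of Chga and Chgb together, and in these cells Nts stood at 38207 CPM, Gcg at 1812, Cck at 387 and Sct at 290, above their levels in other epithelial cells of rat 1 (19.7, 3.69, 4.88 and 33.9). Of the Nts UMIs 1210 of 1581 lay in 1 cell. Barcodes that met the Chga and Chgb limit but were removed for depth or mitochondrial share, 5 in rat 1 and 4 in rat 2, held Sst at 1468 CPM in rat 1 (20 UMIs) and Cck at 1133 CPM in rat 2 (19 UMIs). The other hormones had at most 3 UMIs in these barcodes.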

How the results depend on the processing

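All 143 log2 differences of the hormones under the alternatives were positive, and 33 that had missed the threshold passed it; only Sct lost its call, in the 2 settings given above. The main fit in edgeR called 208 genes higher, 48 lower and 5 hormones higher. The numbers of genes higher, genes lower and hormones were 756, 362 and 10 in DESeq2, 715, 492 and 10 with no filter on low counts, 729, 1091 and 9 with the rat as replicate block (all 256 main calls were kept, and no other hormone's call changed than Cck, Gcg, Pyy and Nts), 365, 123 and 9 with library-size scaling, which moved the median of all genes by 0.34 on the log2 scale, and 332, 257 and 9 with gated cells of the endocrine-like clusters only. Against enterocyte-like cells alone they were 719, 910 and 8. With all classes in 1 model 509 genes were higher and all 10 hormones were called. With the endocrine-like clusters in place of the gate 155 genes were lower and 8 hormones called. The genes lower numbered 1, 143 and 208 with gates of 2, 5 and 10 UMIs, and at most 20% mitochondrial UMIs left 125 higher and 12 lower. Leaving out 1 rat leaves 1 sum per group and no test: over the 9 hormones the log2 differences were 6.20 to 15.30 without rat 1 (Pyy has none, with 0 UMIs in rat 2) and 8.56 to 14.53 without rat 2. Added after the data were seen, leaving out the 12 cells with the most UMIs of each hormone gave 167 higher, 32 lower and 7 hormones, with Cck at a log2 difference of 3.84. The cause of these changes was not tested. The share of cells with 2 or more hormones, 86.4% and 86.7% at 1 UMI, was 52.3% in rat 1 at 10 UMIs and 53.3% in rat 2 after thinning to 1000 UMIs. The 44 and 15 cells limit the shares, the endocrine levels often rest on 1 to 3 cells, and genes under a few UMIs in sums of 339262 and 181814 were not measurable.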

Other observations

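Cartpt, the CART peptide gene, was placed differently in the endocrine cells of the rats. In rat 2 it stood at 18003 CPM in the Sct-led cells, with a UMI in 4 of 6, at 17716 in the Sst-led cell and at 4166 in the Cck-led cells. In rat 1 it was at 1999 CPM in the Sst-led cells, with a UMI in 5 of 7, and had 0 UMIs in the Sct-led and Tac1-led cells. With 1 Sst-led cell in rat 2 and 3 Sct-led cells in rat 1, these values have no replicate check within a rat.

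Neurog3, absent from the 59 gated cells, had 8 UMIs (193 CPM) in 3 of the 6 endocrine-like cells of rat 1 below the gate and 4 UMIs in 1 of the 1322 stem/cycling-like cells of rat 1. It had 0 UMIs in the tuft-like and enterocyte-like cells of both rats.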
